A study of Mus musculus with 3 samples.

Results

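The genes described here encode the nuclear-encoded subunits of the mitochondrial respiratory chain (complexes I to IV) and of ATP synthase (complex V). They are 81 of the 17886 genes that the arrays read, and they were chosen by gene symbol alone: Nduf followed by a, b, c, s or v and a number, Sdha to Sdhd, and symbols starting with Uqcr, Cox4 to Cox8 or Atp5. The symbols give 33 genes of complex I, 4 of complex II, 8 of complex III, 17 of complex IV and 17 of complex V. The other 2, Cox7a2l and Ndufa4l2, carry such a symbol without being a fixed subunit of any complex. Counts over all subunit genes below include them. Where several probe sets name a gene alone, the brightest on average was used. The subunits encoded in mitochondrial DNA were not analysed here.

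Gene expression was measured in wild-type mouse dendritic cells (DCs), the cells that present antigen to T cells, grown from bone marrow over 5 days in GM-CSF (granulocyte-macrophage colony-stimulating factor). PDL2, a surface protein that binds PD-1 on T cells and restrains them, was the marker on which a cell sorter separated the populations. The 3 groups were untreated PDL2-negative cells, PDL2-negative cells given lipopolysaccharide (LPS, a bacterial ligand of Toll-like receptor 4) at 100 ng/ml, and untreated PDL2-positive cells. The design text names a comparison of populations of cultured DCs as the purpose. The duration of LPS, the substrain, age and number of the mice are not given in the sources used here. Each group had 1 array, so no test between groups was possible, no value has a spread between samples, and differences are described by size. The number of arrays limits the precision.

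Complex I oxidizes NADH and complex II (succinate dehydrogenase) oxidizes succinate, and both pass electrons to ubiquinone. Complex III hands them to cytochrome c and complex IV to oxygen, and ATP synthase uses the proton gradient that complexes I, III and IV build. In DCs and macrophages this chain is known for losing ground to glycolysis after LPS, and its complexes I and II are also sources of signalling molecules such as reactive oxygen species.

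Signals are on a log2 scale, so a difference of 1 is 2-fold. The floor, below which a signal counts as not measured, was 5.58, the median of all values. Of the 81 genes, 75 were above it on all 3 arrays, Cox7c on 2 and 5 on none (Cox4i2, Cox7a1, Cox7b2, Cox8b and Ndufb4). These 5 have no difference, which leaves 76 genes in each comparison. The sort showed in Pdcd1lg2, the gene of PDL2, at 8.40 in untreated PDL2-negative, 9.44 in LPS-treated and 11.73 in PDL2-positive cells. All 6 DC markers were above the floor on all 3 arrays. In PDL2-positive against PDL2-negative untreated cells, Itgax (-1.67) and H2-Ab1 (-0.45) were lower, Cd74 (0.00) was level, and Flt3 (1.89), Zbtb46 (2.37) and Ccr7 (6.26) were higher. The T and B cell markers that were above it (3 of 6) stayed at or below 7.14.

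Markers of other cell types, and cell cycle genes, also differed between the arrays. All 9 macrophage markers read were at least 2-fold lower in untreated PDL2-positive than PDL2-negative cells (background 13% of all genes). Their median difference was -4.57. Their summed signal on the linear scale was 71166 in untreated PDL2-negative, 52508 in LPS-treated and 3757 in PDL2-positive cells. Of 10 markers of neutrophils and their precursors, 7 were lower after LPS by at least 2-fold (background 13.8% of all genes). Their summed signal was 18877, 7972 and 18867 in the same order. Cell cycle genes were lower by at least 2-fold in 14 of 20 measured cases after LPS (background 13.8%). In PDL2-positive cells this held for 13 of 20 (background 13%). Both erythroid markers were below the floor. The part of these cells in the results below was not tested, and in RNA from whole populations fewer cells of a type and less RNA per cell cannot be told apart.

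After LPS, most respiratory chain and ATP synthase genes were lower in PDL2-negative cells, with medians from -0.91 in complex II to -0.51 in complex IV. The median difference of the 76 genes was -0.68 (quartiles -0.95 and -0.51), against 0.02 over all genes measured in that comparison. A value below 0 was found in 71 of the 76 (background 48.2% of all genes). The number lower by at least 1.5-fold was 52 (background 24.6%), and the number lower by at least 2-fold was 14 (background 13.8%). A single gene, Ndufb1, was higher by at least 2-fold (background 9.17%). The share past 2-fold was thus near the background, while the share past 1.5-fold was above it.

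Most of these genes are bright, and bright genes as a class were also somewhat lower after LPS. Among the 1831 genes with a mean signal of 10 or more, the median difference was -0.22, 61.2% were below 0 and 31.4% were lower by at least 1.5-fold. All 64 subunit genes in that class were below 0, 47 of them by at least 1.5-fold, with a median of -0.70. The size of the shift moved with the scaling. With the 75th percentiles of the arrays set equal, the median of all subunit genes was -0.40 and that of all genes 0.10. Then 7 of 77 subunit genes were lower by at least 2-fold, and 1344 genes in all. As scaled above, these were 14 of 76 and 1521 of 11000. The share over all genes under the other scaling is not given here. The subunit count fell by more than that of all genes, so the count past 2-fold does not set the subunit genes apart. The sign of the median was the same under every scaling tried.

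**Figure D1:**
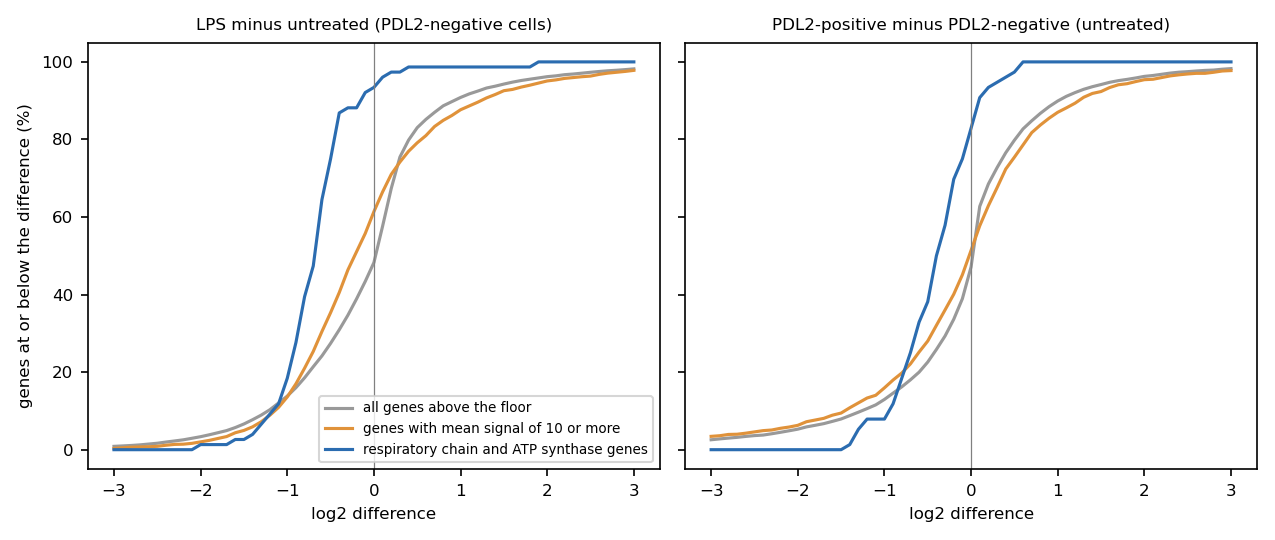
Share of genes (vertical axis, %) at or below a given log2 difference (horizontal axis) for LPS against no treatment (left) and PDL2-positive against PDL2-negative cells (right). Blue is the respiratory chain and ATP synthase genes, orange the genes with a mean signal of 10 or more and grey all genes above the floor; the blue curve climbs steeply below 0, with 93.4% of these genes below 0 after LPS and 82.9% in PDL2-positive cells.

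In untreated PDL2-positive cells the genes were lower than in untreated PDL2-negative cells too, by less at the median. The median was -0.40 (quartiles -0.69 and -0.12), against 0.01 over all genes and -0.02 over bright genes. Of the 76 genes, 63 were below 0 (background 46.7%), 27 were lower by at least 1.5-fold (background 20.4%) and 6 by at least 2-fold (background 13%). None was higher by 2-fold (background 10.1%); the highest was Cox7c, at 0.60. Within the bright class, 53 of 64 were below 0 (background 51.3%) and 21 were lower by at least 1.5-fold (background 25.5%). This comparison shares the untreated PDL2-negative array with the LPS comparison, so a high reading on that array would lower both.

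**Figure D2:**
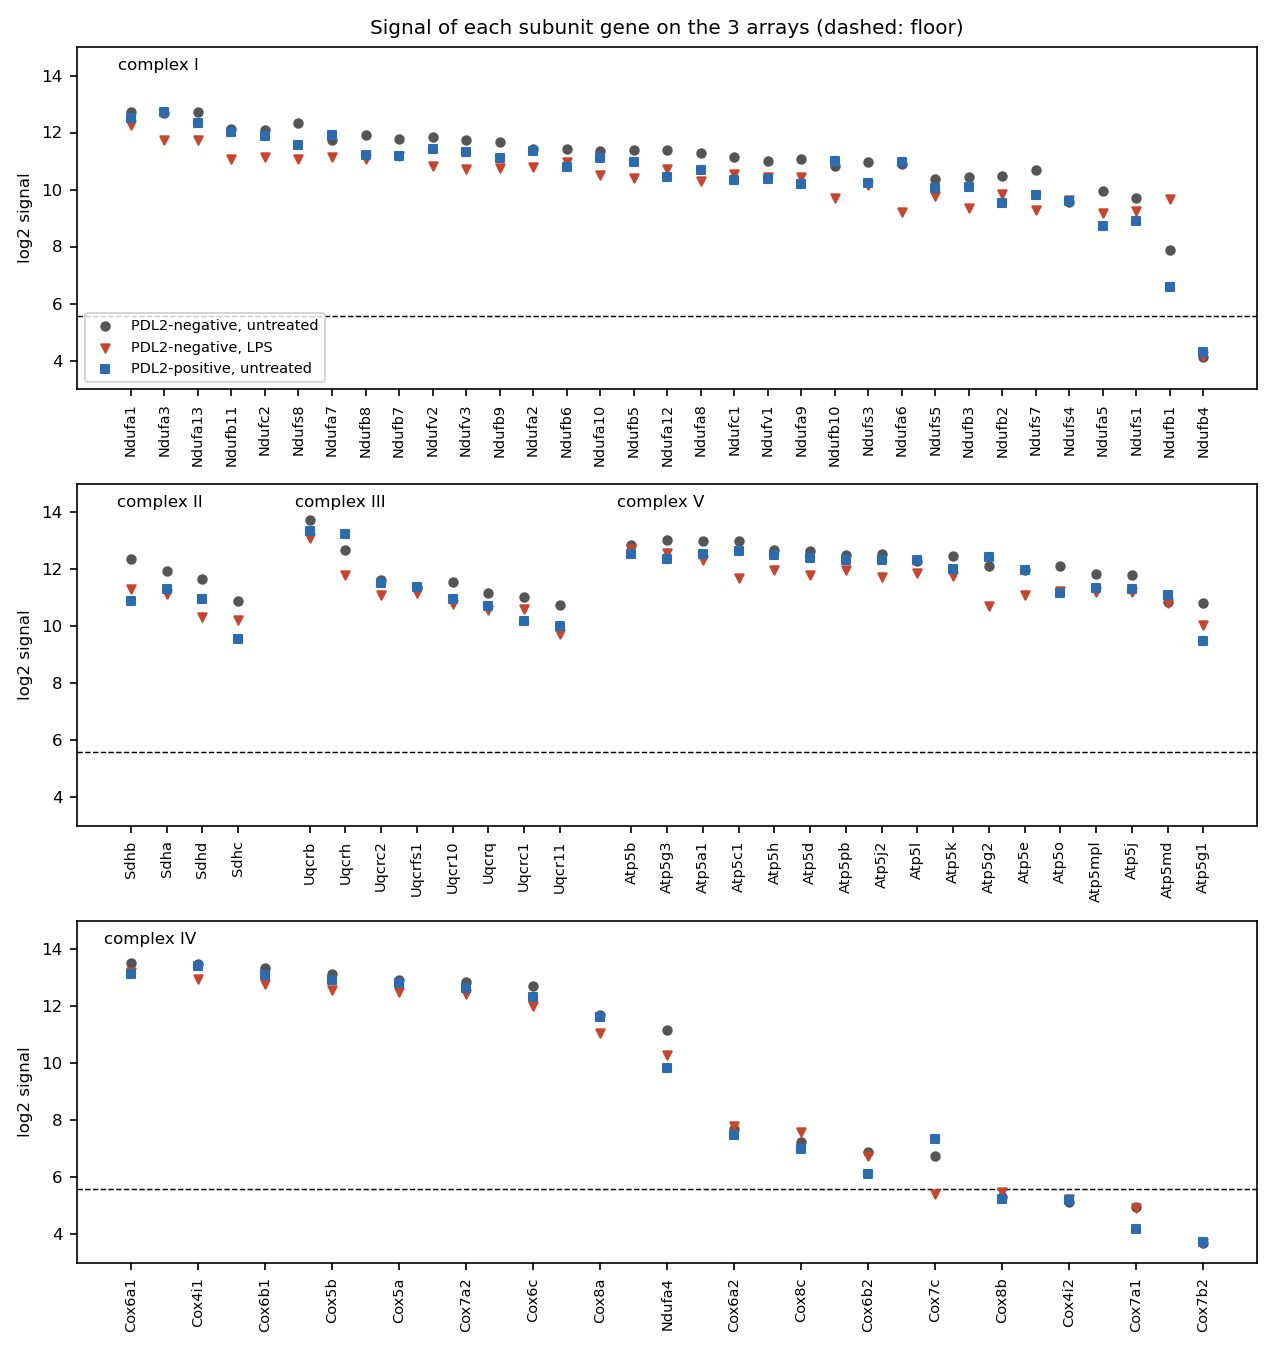
Log2 signal (vertical axis) of each gene of complexes I to V on the 3 arrays: black circles are untreated PDL2-negative, red triangles LPS-treated PDL2-negative and blue squares untreated PDL2-positive cells, and the dashed line is the floor of 5.58. The triangle lies below the circle for most genes, with Ndufb1 (7.86 to 9.68) as the clearest exception.

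Complex I showed the widest spread after LPS. The median of its 32 measured genes was -0.81, and 26 were lower by at least 1.5-fold (background 24.6%). Past 2-fold, 7 were lower (background 13.8%) and 1 was higher (background 9.17%). The 6 core genes, most of whose products carry the flavin or iron-sulfur clusters of the electron path, had a median of -0.90 after LPS. The 26 accessory genes had a median of -0.79. In PDL2-positive cells the medians were -0.76 and -0.42, and 5 of the 6 core genes were lower by at least 1.5-fold (background 20.4%).

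Among the core genes, Ndufs7, an iron-sulfur subunit next to the ubiquinone site, read 10.67 in untreated PDL2-negative, 9.28 in LPS-treated and 9.82 in PDL2-positive cells, 2.62-fold lower after LPS. Ndufs8, its neighbour in that module, read 12.34, 11.09 and 11.57, 2.39-fold lower after LPS. Both were highest in the untreated PDL2-negative cells and lowest after LPS. Ndufs1, the large iron-sulfur subunit of the NADH-oxidizing arm, read 9.71, 9.24 and 8.88, and Ndufv1, which binds NADH and the flavin, 10.996, 10.43 and 10.38. Ndufs1 was instead lowest in PDL2-positive cells, while Ndufv1 was about level between those and LPS-treated cells. Ndufs3 read 10.97, 10.17 and 10.23, and Ndufv2 11.83, 10.84 and 11.44.

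The accessory subunits, which surround the core and steady it, held the extremes. Ndufa6 read 10.90, 9.22 and 10.96, so it was 3.21-fold lower after LPS and about level between the untreated populations. Ndufb10 had the same shape, at 10.82, 9.71 and 10.995 (2.15-fold lower after LPS), as did Ndufb11 at 12.12, 11.06 and 12.03 (2.09-fold). Ndufb3 read 10.43, 9.35 and 10.07 (2.11-fold lower after LPS) and Ndufv3 11.75, 10.73 and 11.31 (2.03-fold). In all 5 the LPS array stood lowest.

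Ndufb1, a small subunit of the membrane arm, went the other way after LPS. Its signal was 7.86 in untreated PDL2-negative, 9.68 in LPS-treated and 6.57 in PDL2-positive cells, 3.53-fold higher after LPS and 2.45-fold lower in PDL2-positive cells. It rests on 1 probe set, so no other reading of the gene was at hand. The same holds for Ndufa6, Ndufb10, Ndufb3 and Ndufv3 above, and for Sdhb, Uqcr11 and Ndufa4 below. Ndufs4, which is needed to complete the NADH-oxidizing arm, was level at 9.58, 9.62 and 9.61. Ndufa5, an accessory subunit at the ubiquinone module, was lowest in PDL2-positive cells, at 9.95, 9.18 and 8.72 (2.34-fold lower than in PDL2-negative cells). The brightest complex I probe set, that of Ndufa1, read 12.74, 12.27 and 12.52.

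Complex II had the lowest median in PDL2-positive cells, -1.03 over its 4 genes, all of them lower by at least 1.5-fold (background 20.4%) and 2 by at least 2-fold (background 13%). After LPS the median was -0.91, again with all 4 lower by at least 1.5-fold (background 24.6%) and 2 by at least 2-fold (background 13.8%). With the probe sets of a gene averaged, the PDL2 median was -0.65. The flavoprotein Sdha, which oxidizes succinate, read 11.93 in untreated PDL2-negative, 11.15 in LPS-treated and 11.32 in PDL2-positive cells. The iron-sulfur subunit Sdhb read 12.37, 11.32 and 10.88, 2.07-fold lower after LPS and 2.81-fold lower in PDL2-positive cells. All 4 genes were highest in the untreated PDL2-negative cells.

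The membrane anchors of complex II split by condition. Sdhc read 10.90, 10.22 and 9.55 and was 2.56-fold lower in PDL2-positive cells, where it was lowest. Sdhd read 11.66, 10.32 and 10.95 and was 2.53-fold lower after LPS, where it was lowest. Sdhc and Sdhd each have a dimmer second probe set that differed from the first. For Sdhc the second differed by -0.15 after LPS and -0.80 in PDL2-positive cells. For Sdhd, whose second probe set read 7.06, 6.62 and 7.33, the values were -0.44 and 0.27. A dim probe set of Sdha, below the floor in untreated PDL2-negative cells, read 5.55, 5.96 and 6.86. It differed by 0.41 after LPS and 1.30 in PDL2-positive cells, against -0.78 and -0.61 for the brightest of that gene.

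In complex III the LPS median was -0.61 over 8 genes, with 5 lower by at least 1.5-fold (background 24.6%) and 1 by at least 2-fold (background 13.8%). That gene was Uqcr11, the smallest subunit, at 10.75, 9.72 and 10.01 (2.04-fold lower after LPS). The Rieske iron-sulfur protein Uqcrfs1, which moves electrons inside the complex, was nearly level at 11.38, 11.19 and 11.40. In PDL2-positive cells the median was -0.42, and with the probe sets of a gene averaged it was -0.16. No gene passed 2-fold there (background 13% lower and 10.1% higher). Uqcrh, the hinge protein that holds cytochrome c1, was lowest after LPS and highest in PDL2-positive cells, at 12.68, 11.79 and 13.26. Uqcrc1, a core protein of the complex, was lowest in PDL2-positive cells, at 11.03, 10.61 and 10.17. Uqcrb, the brightest probe set of the complex, read 13.73, 13.09 and 13.33.

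Complex IV had medians of -0.51 after LPS and -0.21 in PDL2-positive cells over 13 measured genes. Lower by at least 1.5-fold were 4 genes after LPS (background 24.6%) and 2 in PDL2-positive cells (background 20.4%). With the 75th percentiles set equal, the LPS median was -0.19. Apart from Ndufa4 and Cox7c, its widely expressed subunits differed by -0.41 to -0.06 between the untreated populations. Cox4i1, the main regulatory subunit, read 13.47 in untreated PDL2-negative, 12.96 in LPS-treated and 13.41 in PDL2-positive cells. Cox6a1, the brightest of the complex, read 13.53, 13.20 and 13.12, and Cox6b1 13.35, 12.78 and 13.09. Cox8a read 11.70, 11.05 and 11.62, and Cox7a2 12.83, 12.43 and 12.65.

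Of the 13 measured genes of complex IV, 1 was lower by at least 2-fold in PDL2-positive cells. That is 7.69%, below the background of 13%. Ndufa4, long assigned to complex I and now known as a subunit of complex IV, read 11.17, 10.29 and 9.83, 2.53-fold lower than in PDL2-negative cells. Cox7c was read only by dim probe sets, at 6.74, 5.40 and 7.34, and was at least 2.24-fold lower after LPS, where it lay below the floor. Of the 7 isoforms known from muscle, lung or testis, 3 were above the floor and 4 were not. Cox6a2, the muscle form, read 7.70, 7.79 and 7.49, and the testis forms Cox6b2 and Cox8c read 6.87, 6.75 and 6.12, and 7.23, 7.59 and 6.997. Cox4i2 stayed below the floor at 5.14, 5.24 and 5.19, as did Cox7a1 (4.95, 4.92 and 4.19), Cox8b (5.32, 5.48 and 5.23) and Cox7b2 (3.69, 3.70 and 3.72). Without the isoforms of other tissues the LPS median of the complex was -0.56.

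ATP synthase was lower after LPS in all 17 genes, with a median of -0.70, 12 lower by at least 1.5-fold (background 24.6%) and 2 by at least 2-fold (background 13.8%). With the 75th percentiles set equal, its median was -0.38. The values ranged from -1.40 in Atp5g2 to -0.05 in Atp5md, an accessory subunit that read 10.86, 10.81 and 11.10. In PDL2-positive cells the median was -0.33, 3 genes were lower by at least 1.5-fold (background 20.4%) and 1 by at least 2-fold (background 13%), both shares below the background. The catalytic head, made of the products of Atp5a1, Atp5b, Atp5c1, Atp5d and Atp5e, was uneven after LPS. Its catalytic subunit Atp5b, the brightest probe set of the complex, read 12.85, 12.71 and 12.52, while Atp5a1 read 12.99, 12.34 and 12.52. Atp5c1, the rotating shaft, read 12.99, 11.70 and 12.63, 2.44-fold lower after LPS. Its second, dim probe set read 6.19, 6.31 and 6.27 and did not show that difference. Atp5o, the stalk subunit that tethers the head, was about as low in PDL2-positive as in LPS-treated cells, at 12.13, 11.24 and 11.17.

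The 3 genes of the c ring, the rotor that turns with the proton flow, encode the same mature protein behind different import sequences, and they differed from each other. Atp5g1 read 10.83 in untreated PDL2-negative, 10.03 in LPS-treated and 9.49 in PDL2-positive cells, and was 2.52-fold lower in PDL2-positive cells. Atp5g2 read 12.12, 10.71 and 12.44, 2.64-fold lower after LPS and slightly higher in PDL2-positive cells. Atp5g3 read 13.01, 12.58 and 12.38. Atp5g2 was therefore highest where Atp5g1 and Atp5g3 were lowest. Their promoters are shown because one protein is made from all 3 genes, with Sdhb as the gene with the lowest difference in PDL2-positive cells. The windows run from 250 bases before to 30 bases after the start of the gene, 5′ to 3′ on the strand of the gene, from RefSeq (GRCm38.p6). They lie at chr11:96075602-96075881 (minus strand) for Atp5g1, chr15:102671018-102671297 (minus strand) for Atp5g2, chr2:73911297-73911576 (minus strand) for Atp5g3 and chr4:140961021-140961300 (plus strand) for Sdhb. Capitals mark exact matches, on either strand, to GCGCATGCG (NRF1), CCGGAAG (ETS family), AAGATGGCG (YY1) or GGGCGGG (Sp1).
Atp5g1: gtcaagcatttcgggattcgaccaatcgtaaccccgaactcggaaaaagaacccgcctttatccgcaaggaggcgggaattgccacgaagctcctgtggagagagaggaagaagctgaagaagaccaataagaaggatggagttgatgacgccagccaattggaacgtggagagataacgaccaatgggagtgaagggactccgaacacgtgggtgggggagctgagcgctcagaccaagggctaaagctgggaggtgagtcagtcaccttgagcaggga
Atp5g2: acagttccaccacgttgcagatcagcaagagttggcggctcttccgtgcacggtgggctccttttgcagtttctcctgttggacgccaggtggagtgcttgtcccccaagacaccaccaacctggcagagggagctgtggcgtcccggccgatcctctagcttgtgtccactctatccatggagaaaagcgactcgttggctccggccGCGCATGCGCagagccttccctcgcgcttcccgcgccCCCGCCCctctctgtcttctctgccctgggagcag
Atp5g3: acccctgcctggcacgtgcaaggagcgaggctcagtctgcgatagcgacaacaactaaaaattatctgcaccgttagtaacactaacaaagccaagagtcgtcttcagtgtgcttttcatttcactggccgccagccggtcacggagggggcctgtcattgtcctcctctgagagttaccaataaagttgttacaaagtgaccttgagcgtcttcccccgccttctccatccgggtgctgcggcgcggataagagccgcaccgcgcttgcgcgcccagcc
Sdhb: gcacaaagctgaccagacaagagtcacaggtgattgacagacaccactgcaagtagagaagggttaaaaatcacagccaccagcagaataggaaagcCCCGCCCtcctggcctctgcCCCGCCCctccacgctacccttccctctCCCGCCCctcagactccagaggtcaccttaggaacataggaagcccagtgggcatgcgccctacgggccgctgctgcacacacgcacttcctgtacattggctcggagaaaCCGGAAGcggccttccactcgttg
In the Atp5g2 window the NRF1 letters match on both strands in overlapping positions, followed by a Sp1 match on the other strand. The Sdhb window has an ETS match just after the start and 3 Sp1 matches on the other strand before it. None of these letters is in the Atp5g1 and Atp5g3 windows, which says nothing of the factors themselves.

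Over all subunit genes, 66 of 81 had promoter windows in the RefSeq table, 71 windows of 300 bases (250 before to 50 after the start). NRF1 letters were in 9.86% of them, against 1.75% of all 32851 windows and 3.44% of the windows of genes above the floor. YY1 letters were in 8.45%, against 1.4% and 2.92%, and ETS letters in 23.9%, against 8.86% and 16.9%. These factors are known regulators of respiratory genes. Sp1 letters, common near gene starts, were in 35.2%, against 25.6% of all windows and 45.4% of those of genes above the floor. The NRF1 letters were in windows of Atp5g2, Atp5k, Atp5l, Cox6a1, Ndufa8, Uqcr11 and Uqcrc1. The matches are a description of letters, not of binding.

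**Figure D3:**
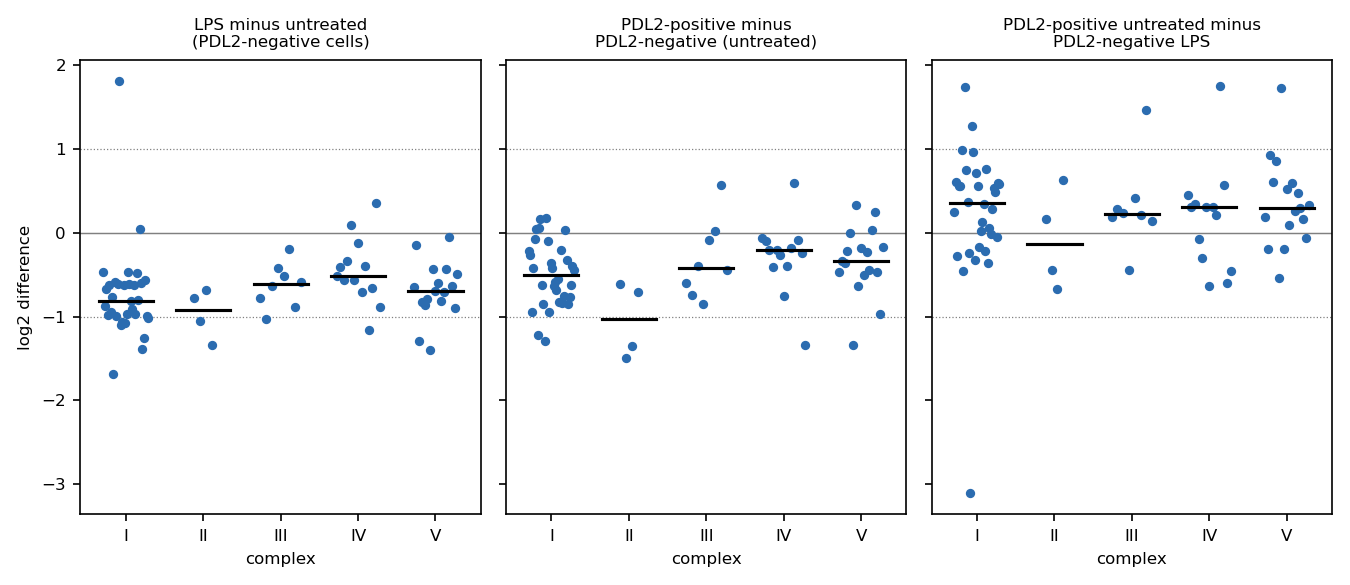
Log2 difference of each measured subunit gene (points) by complex, for LPS against no treatment (left), PDL2-positive against PDL2-negative cells (middle) and PDL2-positive against LPS-treated cells (right); black bars are medians and dotted lines mark 2-fold. The bars lie at -0.81, -0.91, -0.61, -0.51 and -0.70 in the left panel and at -0.50, -1.03, -0.42, -0.21 and -0.33 in the middle one, for complexes I to V.

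Cox7a2l had the lowest LPS value of all 81 genes. Its product helps join complexes III and IV into supercomplexes and is no fixed subunit. The signal was 12.52 in untreated PDL2-negative, 10.43 in LPS-treated and 12.99 in PDL2-positive cells, 4.27-fold lower after LPS and 1.38-fold higher in PDL2-positive cells. All 3 of its probe sets gave this, with LPS differences between -2.10 and -2.07. Ndufa4l2, a relative of Ndufa4 known from low oxygen, stayed close to the floor at 5.90, 6.07 and 5.77.

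PDL2-positive untreated cells were also set against LPS-treated PDL2-negative cells, a comparison that shares an array with each of the others. The median was 0.28, against -0.05 over all genes, and 53 of 76 genes were above 0 (background 46.4%). The number higher by at least 1.5-fold was 18 (background 25.1%) and by 2-fold 6 (background 15.6%), and 1 gene was lower by 2-fold (background 12.6%). In the bright class 50 of 64 were above 0 (background 55.2%) and 16 were higher by at least 1.5-fold (background 32.1%). With the 75th percentiles set equal the median was 0.06. The complexes gave 0.36, -0.14, 0.22, 0.31 and 0.29 from I to V. At the ends stood Cox7a2l, 5.91-fold higher in PDL2-positive cells, and Ndufb1, 8.63-fold lower. The other genes higher by at least 2-fold were Cox7c (at least 3.38-fold), Ndufa6 (3.35-fold), Atp5g2 (3.32-fold), Uqcrh (2.76-fold) and Ndufb10 (2.43-fold).

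For 42 subunit genes the 2 brightest probe sets were both above the floor, and in 40 of them (95.2%) these differed in the same direction after LPS, against 77.6% of 4212 genes in all. The median gap between the pair was 0.13 in the subunit genes and 0.29 over all genes, and the robust SD of the gap was 0.18 and 0.41. The pool of all genes was not matched for brightness, while 64 of the 81 subunit genes have a mean signal of 10 or more. Whether equally bright genes agree as closely was not tested. In PDL2-positive cells the direction was shared in 36 of 42 (85.7%), against 84.1% of 4243 genes, with median gaps of 0.09 and 0.20. Over all probe sets above the floor, those of a gene pointed in opposite directions in 5 of 42 genes after LPS and in 10 of 42 in PDL2-positive cells. Of the 6 subunit genes with such a pair past 2-fold after LPS, 4 were past it with the second probe set as well. Over all genes this held for 628 of 1034. In PDL2-positive cells there were 2 such subunit genes, and neither passed 2-fold with the second, against 679 of 960 over all genes. They were Ndufa5 and Sdhc, with second readings of -0.97 and -0.80. The gap between the probe sets of a gene is the only error these arrays hold. It says nothing of the spread between cultures or mice.

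Over all probe sets above the floor, the readings of a gene spanned 0.18 at the median after LPS and under 0.3 in 28 of 42 genes. Ndufb11 was among the closest, with 3 probe sets between -1.08 and -1.04. A span of over 1 was found in 3 genes, each through a dim probe set. Ndufs8 ran from -1.30 to 0.21 over 6 probe sets, the highest from one at 7.88, 8.10 and 7.90. Ndufa12, an accessory subunit of complex I, ran from -0.70 to 1.04 over 4, where the highest came from a probe set at 6.60, 7.64 and 6.63, while its brightest read 11.40, 10.73 and 10.45. Atp5c1 ran from -1.29 to 0.13. In PDL2-positive cells Ndufa12 (-1.02 to 0.02) and Atp5j2 (-0.32 to 0.78), a membrane subunit of ATP synthase whose brightest probe set read 12.54, 11.73 and 12.32, spanned over 1. Of the 119 member probe sets with a mean of at least 9, 118 were below 0 after LPS and 100 in PDL2-positive cells. Of the 22 between the floor and 9, 9 and 8 were below 0. A single deposited value on all 3 arrays, which can show no difference, was found in 5 of the 163 member probe sets (3.07%), none of them the brightest of its gene, against 18.2% of all probe sets.

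**Figure D4:**
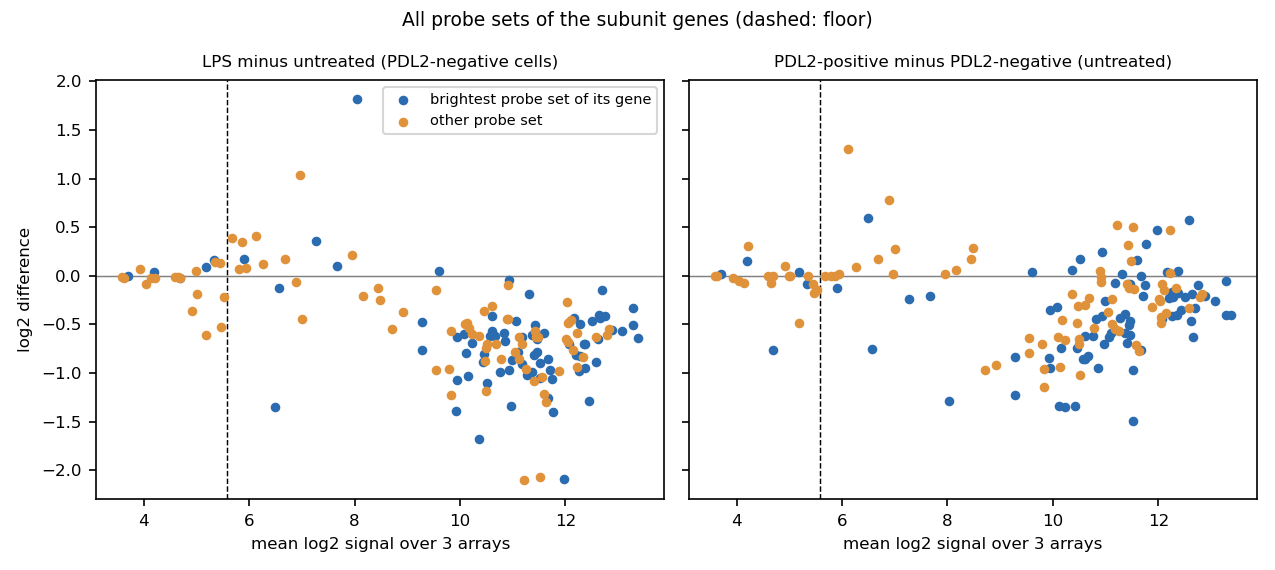
Log2 difference (vertical axis) of every probe set of the subunit genes against its mean log2 signal over the 3 arrays (horizontal axis), for LPS against no treatment (left) and PDL2-positive against PDL2-negative cells (right); values are shown without the floor, whose place is dashed. Blue is the brightest probe set of a gene and orange any other; from a mean of 9 upwards, 118 of 119 lie below 0 on the left, while dimmer ones scatter around 0.

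Genes of neighbouring pathways were read from lists chosen by function. The tricarboxylic acid cycle feeds the chain with NADH and succinate. Its list of 18 genes also held linked enzymes outside it: pyruvate dehydrogenase (Pdha1, Pdhb and Dlat), Pcx and the cytosolic Mdh1. Of the 18, 7 were lower after LPS by at least 2-fold (background 13.8%) and none was higher, with a median of -0.66. The 7 included Mdh1 (-1.35) and Pdha1 (-1.20). In PDL2-positive cells 2 were lower, a share no larger than the background of 13%, and none was higher, with a median of -0.47. Fh1 (fumarase), the enzyme after complex II in the cycle, read 10.97 in untreated PDL2-negative, 9.06 in LPS-treated and 8.99 in PDL2-positive cells, 3.77-fold and 3.96-fold lower. Idh3a, a subunit of isocitrate dehydrogenase, was lowest in PDL2-positive cells at 10.11, 9.33 and 8.001. Pcx, which makes oxaloacetate from pyruvate, was low in all 3 arrays and higher by 0.77 and 0.80.

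Assembly factors, which build the complexes and leave them, were less uniform. Of 43 above the floor, 10 were lower after LPS by 2-fold or more (background 13.8%) and 3 higher (background 9.17%), at a median of -0.31. In PDL2-positive cells 4 were lower (background 13%) and 1 higher (background 10.1%), with a median of -0.01. The factor that was higher, Sdhaf1, which loads iron-sulfur clusters into Sdhb, read 8.01, 6.94 and 10.86, 7.17-fold higher in PDL2-positive cells, where Sdhb itself was lowest. Coa6, a copper factor of complex IV, was lowest after LPS at 8.90, 6.94 and 8.97. The copper chaperones Sco1 and Sco2 read 6.35, 8.08 and 6.49, and 8.11, 7.26 and 6.19. Like Sdhb, the factors Sdhaf1, Coa6, Sco1 and Sco2 each rest on 1 probe set.

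The mobile electron carrier and the inhibitor of ATP synthase had orders of their own. Cycs (cytochrome c) was highest after LPS and lowest in PDL2-positive cells, at 11.63, 12.37 and 10.64. Atpif1, that inhibitor, was 2.22-fold lower after LPS and 1.81-fold higher in PDL2-positive cells, at 11.97, 10.82 and 12.83. Cyc1 (cytochrome c1 of complex III) read 11.07, 10.56 and 10.33. The accessory protein Ndufab1 read 10.89, 10.41 and 10.46. Of 21 import, membrane and chaperone genes, 3 were lower after LPS by 2-fold or more and none was higher, at a median of -0.33, a share lower that is near the 13.8% of all genes. The ATP carrier Slc25a4 read 11.45, 10.07 and 11.80 and its relative Slc25a5 13.48, 12.57 and 12.44. Slc25a4 was thus lowest after LPS and Slc25a5 in PDL2-positive cells. The import receptor Tomm70a was higher by 0.71 and 1.15.

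Among 16 measured regulators of respiratory genes and mitochondrial DNA, 3 were lower and 2 higher after LPS by 2-fold or more, at a median of 0.08, shares near the background of 13.8% and 9.17%. PDL2-positive cells had 2 lower (background 13%) and 1 higher (background 10.1%). The coactivator Ppargc1b, which raises mitochondrial gene expression, read 8.85 in untreated PDL2-negative cells, 5.59 after LPS and 5.33, below the floor, in PDL2-positive cells. It was 9.56-fold lower after LPS and at least 9.66-fold lower in PDL2-positive cells. Its better known relative Ppargc1a was below the floor on every array. Gabpb1, a subunit of an ETS-family regulator of respiratory genes, read 6.63, 8.68 and 7.73, 4.15-fold higher after LPS. Nrf1, whose letters were searched above, read 6.87, 7.47 and 6.99.

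Of 7 measured genes whose products act on the activity of the chain, 3 were higher (background 9.17%) and 2 lower (background 13.8%) after LPS by 2-fold or more. The 3 were Acod1, Nos2 and Sod2, and the 2 were Higd2a and Atpif1, the last already given above. This list was picked by hand with earlier results of these data known, so its shares cannot be weighed against the background. Some of its genes differed by far more than any subunit gene. Acod1 makes itaconate, an inhibitor of complex II, and read 9.003 in untreated PDL2-negative, 14.17 in LPS-treated and 5.44, below the floor, in PDL2-positive cells. Nos2 makes nitric oxide, which inhibits complex IV, and was at least 46.0-fold higher after LPS, with signals of 5.42, 11.10 and 5.37. Sod2, the superoxide dismutase of mitochondria, read 11.51, 14.12 and 10.16. All 3 were highest in LPS-treated cells, and Acod1 and Sod2 were lowest in PDL2-positive cells. Higd2a, a factor of complex IV and its supercomplexes, read 12.34, 11.03 and 12.96, an order like that of Cox7a2l. Acod1, Nos2 and Higd2a, and Fh1 and Ppargc1b above, each rest on 1 probe set, so no other reading of them was at hand. RNA levels do not give protein levels or respiration, which were not measured.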

How the data were processed

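Biotin-labelled total RNA of 3 sorted cell populations, isolated on silica columns per the labels' protocols, was read on 1 array each. Each deposited value is a log2 summary by the authors of 1 probe set on 1 array, as the values' range shows; their background correction, normalization and summary method: not given in the sources used here. Across arrays the 75th percentiles differed by over 0.1, so 38533 probe sets were quantile-normalized after 13 control probe sets of 38546 had been left out. Probe sets naming several genes were left out, each gene was read by its brightest probe set, and values below the floor of 5.58 were raised to it. A fold against a raised value is given as at least N-fold. Calls are by size (2-fold, with 1.5-fold as a second rule). The background of a comparison is every gene above the floor on either array. The rule for genes named in full took, per complex, the brightest, the lowest and highest in each comparison, those past 2-fold, isoform sets and genes whose probe sets disagreed by over 1; of other lists, mainly the lowest and highest genes. The members, lists and rules were chosen with earlier results of these data known. A planned protein comparison was not run, and proteins were not used here. The alternatives tried were other scalings, floors, probe set rules and thresholds. Python 3.11.15, numpy 2.4.6 and pandas 2.3.3 were used, and the calculation was tested on simulated data.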

Additional observations from a re-analysis of the deposited data

How the results depend on the processing

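With 1 array per group no replicate could be left out, and no p-value, spread between cultures or batch effect could be had. No paired analysis was possible because each group has 1 array. The medians of all subunit genes ranged over the alternatives from -0.70 to -0.40 after LPS, from -0.40 to -0.32 in PDL2-positive cells and from 0.06 to 0.29 in PDL2-positive against LPS-treated cells. With the deposited values as they are, the median of all genes after LPS was -0.09, against 0.02 after quantile normalization. With the 75th percentiles set equal, complex IV gave -0.19 and complex V -0.38 after LPS. Then 7 of 77 subunit genes in place of 14 of 76 were lower by 2-fold. Over all genes it was 1344 in place of 1521 of 11000, a smaller fall. The cause was not tested. With the mean of probe sets above the floor, the PDL2 medians of complexes II and III were -0.65 and -0.16, where by construction dimmer probe sets enter. Without probe sets marked as shared (suffixes _x_at and _s_at), 2 of 71 subunit genes were higher by 2-fold after LPS, and 1006 genes in all. With them these were 1 of 76 and 1009 of 11000. In PDL2-positive against LPS-treated cells 2 of 71 were then lower, and 1376 in all. With the shared probe sets these were 1 of 76 and 1391 of 11042. With Cox7a2l and Ndufa4l2 left out, 13 of 74 genes were lower by 2-fold after LPS (background 13.8%), and the median stayed at -0.68. In PDL2-positive against LPS-treated cells 5 of 74 were then higher by 2-fold (background 15.6%). At 1.5-fold, 52 genes were lower after LPS (background 24.6%). PDL2-positive cells had 27 lower (background 20.4%) and 1 higher (background 17.7%). In PDL2-positive against LPS-treated cells 4 were lower (background 18.5%) and 18 higher (background 25.1%). At 3-fold, 2 were lower and 1 higher after LPS, against 646 and 581 of 11000 genes in all. In PDL2-positive cells 0 were lower and 0 higher at 3-fold, against 803 and 587 of 10926. The complex II median in PDL2-positive against LPS-treated cells lay between -0.34 and 0.04. Atp5c1 gave 0.13 after LPS with its second brightest probe set, in place of -1.29. With the second brightest probe set, 33 of 43 genes after LPS and 30 of 42 in PDL2-positive cells stayed within the robust SD of a single probe set over all genes (0.29 and 0.21); over the subunit genes alone that SD was 0.13 and 0.09. Low signal limits Cox7c and Ndufa4l2, which lie near the floor.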

Other observations

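A further 7 probe sets name a respiratory chain gene together with another gene and were used for no gene. The probe set shared by Ndufs5 and its pseudogene read 10.27 in untreated PDL2-negative, 9.64 in LPS-treated and 9.75 in PDL2-positive cells, differences of -0.62 after LPS and -0.52 in PDL2-positive cells. The one shared by Ndufs6 and Ndufs6b read 10.61, 9.71 and 10.11, and the brighter of those shared by Ndufa11 and Ndufa11b read 10.62, 10.10 and 10.39. These 3 were highest in untreated PDL2-negative cells and lowest after LPS. The other 4 stayed at or below 7.25 on all 3 arrays.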
